A study of Mus musculus with 3 samples.

Results

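The microRNAs (miRNAs) named miR-297, miR-466, miR-467 and miR-669, most of which are encoded within an intron of the mouse gene Sfmbt2, were examined in extracellular vesicles (EVs) of the neonatal testis. Members were taken by name from the deposited catalogues, as every entry of the mature or hairpin type whose identifier carries one of the 4 numbers. By this rule 33 of the 604 mature entries and 41 of the 743 hairpin entries with a count in any library belonged to the family. Outside the family, 491 mature and 554 hairpin entries carried a mouse miRNA name, and the rest of the 604 and 743 did not. The family's 74 entries stand for 45 identifiers, of which 29 had both types, 4 had a mature entry only and 12 had a hairpin entry only. Small RNA was sequenced from EVs of postnatal day 7 (PND7) testis in 3 libraries, each prepared from 10 male C57/BL6 mice, and there was no other group. EVs were collected from the fluid left after decapsulated testes had been dissociated, and RNA outside the vesicles was digested with proteinase K and RNase A before extraction. The sample titles carry the word treated, but no treatment of the animals is described. Because whole testes were used, fewer vesicles of a cell type and less RNA per vesicle cannot be told apart.

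MiRNAs are cut from hairpin precursors by Drosha and Dicer, and either arm of the hairpin, 5p or 3p, can be loaded into Argonaute to guide the repression of target mRNAs. Sfmbt2 encodes a polycomb group protein, is imprinted and is expressed from the paternal allele in early embryos and the placenta. Its intron holds one of the largest miRNA clusters of the mouse, which arose by repeated duplication in rodents and is needed for normal growth of the placenta. In the GENCODE annotation of GRCm38, the assembly behind mm10, which the processing notes of the submitters name, 81 precursor genes carry names of the family. Of these, 71 lie within Sfmbt2 on the plus strand of chromosome 2, from 10466663 to 10518279, a stretch of 51.6 kb. All 71 fall in intron 10 of Sfmbt2-201, the longest coding transcript, and none overlaps an exon of any annotated Sfmbt2 transcript. The other 10 are spread over chromosomes 3, 5, 7, 9, 10, 11 and 13.

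The names fitted the label for most entries but not for all. Of the 33 mature entries, 29 were assigned by the authors to a precursor within Sfmbt2, and these held 97.3% ± 1.20 (SD, n = 3) of the mature counts of the family. Of the hairpin entries, 36 were assigned within Sfmbt2, with 93.7% ± 1.47 of the family's hairpin counts. The entries from elsewhere were those of miR-466i on chromosome 13, miR-466f on the same chromosome, which was listed apart from miR-466f-3p and miR-466f-5p, miR-466k on chromosome 3 and miR-467h on chromosome 9. One mature entry, miR-466a-3p, names a precursor that matched no annotated gene name, and it was not counted as within Sfmbt2. A gene named Mir466 is annotated there, and whether it is that precursor was not settled.

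RefSeq mature sequences (GRCm38.p6, plus strand) were matched for 3 of the 45 identifiers, miR-466i-3p at chr13:17747552-17747573, miR-466k at chr3:85467396-85467418 and miR-467h at chr9:115381898-115381919, all outside Sfmbt2. They are shown because they display the alternating bases of the family, and capitals mark the seed, bases 2 to 8 from the 5′ end, which pairs with targets.
miR-466i-3p: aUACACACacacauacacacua
miR-466k: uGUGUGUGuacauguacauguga
miR-467h: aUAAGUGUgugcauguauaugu
Of these, miR-466i-3p and miR-466k had hairpin entries only, and miR-467h had 1, 2 and 0 mature counts in replicates 1, 2 and 3. The 3 seeds differ from one another. In the RefSeq table the seed of miR-467h is also that of miR-668-5p, whose gene belongs to another imprinted cluster.
The precursor of miR-466k, chr3:85467377-85467498, is printed to show how far such repeats extend, with the mature part in capitals.
Mir466k: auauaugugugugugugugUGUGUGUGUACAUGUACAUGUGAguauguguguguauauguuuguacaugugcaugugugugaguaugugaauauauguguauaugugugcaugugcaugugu
Across the 81 annotated precursors of the family, a median of 51.2% of the dinucleotides, adjacent bases along the strand, were CA, AC, UG or GU. The range was 32.5% to 76.0%. The printed Mir466k, at 65.3%, lay well above that median. The median over the 1093 other annotated genes with a Mir name was 27.0%, and 0.0915% of those genes reached the family median.

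Exact runs of bases shared between precursors were common within the family. An exact run of at least 22 bases, the length of a mature miRNA, was shared with a miRNA gene of another name by 93.8% of the family's precursors and by 3.02% of the others. In addition, 24 of the 81 genes had a precursor sequence identical to that of another gene of the family. A read from such a stretch can be placed on more than 1 name, so the division of counts between members is less certain than their sum. The run was sought anywhere in the precursor, and whether it covers the counted part was not checked. The percentages therefore do not give the share of members whose counts can be divided wrongly. How the authors' counting places such reads is not stated.

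Summed over its members, the family held 0.283% of the mature miRNA counts in replicate 1, 0.281% in replicate 2 and 0.291% in replicate 3. The exact binomial 95% confidence intervals (Clopper-Pearson) were 0.272% to 0.295%, 0.271% to 0.291% and 0.281% to 0.302% in the same order, and all 3 overlapped. The mean was 0.285% ± 0.00549 (SD, n = 3), from 2467, 2824 and 2815 counts out of 870967, 1005836 and 966468. From the lowest to the highest library the mature total differed 1.04-fold. For single members with at least 10 counts in every library this factor was between 1.42 and 3.59, which is no test of the total because members may exchange reads.
The hairpin total varied more. The family held 0.372%, 0.277% and 0.341% of the hairpin counts in replicates 1, 2 and 3, with a mean of 0.330% ± 0.0487 (SD, n = 3). The interval of replicate 2, 0.264% to 0.290%, did not overlap those of replicate 1, 0.356% to 0.390%, or replicate 3, 0.326% to 0.356%. The intervals reflect sampling of reads alone, and amplified copies of 1 molecule were not separated from one another.

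The 5p arm held nearly all mature counts of the family. Entries with a 5p name had 2328 counts in replicate 1, 2610 in replicate 2 and 2552 in replicate 3, and entries with a 3p name had 138, 191 and 205. The 5p share was 92.5% ± 1.85 (SD, n = 3), and a further 0.972% ± 1.02 lay on 3 entries named without an arm. The log2 ratio of 3p to 5p counts was -3.83 ± 0.22 (SD, n = 3) and below 0 in each of the libraries (two-sided exact sign-flip permutation of the 3 values, p = 0.25, which is the lowest value possible with 3 pairs).
Among all other miRNAs with a mouse name, the same ratio was -0.86 ± 0.27, and the family lay lower in its 3p share in every library (family minus others, -2.97 ± 0.49 on the log2 scale, n = 3, exact sign-flip p = 0.25). Of the 20 mature 5p entries, 11 were counted in every library, against 3 of the 10 mature 3p entries.
The leading 3p member was miR-467d-3p, with 30, 82 and 59 counts in replicates 1, 2 and 3. Its partner from the 5p arm of the same hairpin, miR-467d-5p, had 112, 0 and 116 counts. Among mature entries, the 3p arm was thus the only one counted in replicate 2, whereas in the other libraries the 5p arm was higher. The hairpin entries differed, with 56, 44 and 104 counts for miR-467d-5p and 0, 1 and 39 for miR-467d-3p.
miR-466h was the other way round in its mature entries, with 14, 58 and 51 counts on the 3p arm and 11, 0 and 0 on the 5p arm. Its hairpin entries had 0, 2 and 33 counts on the 3p arm and 38, 17 and 0 on the 5p arm. miR-466h was 1 of 6 members with a mature entry for both arms.
In the hairpin entries the arms were less unequal, with 82.1% ± 0.962 of the counts on 5p names. The log2 ratio of 3p to 5p was higher there than in the mature entries, by 1.47 ± 0.31 (SD, n = 3; exact sign-flip permutation p = 0.25), and it was higher in each library.

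Among the subfamilies, miR-467 and miR-669 together held most mature counts. The miR-467 names, with 8 mature entries, held 39.3%, 46.3% and 41.9% of the mature family counts in replicates 1, 2 and 3, and the miR-669 names, with 9 entries, held 45.8%, 38.5% and 39.0%. Their means, 42.5% ± 3.52 and 41.1% ± 4.05 (SD, n = 3 each), differed by less than the spread between libraries, and miR-669 led in replicate 1. The 2 miR-297 entries held 8.91% ± 1.52 and the 14 miR-466 entries 7.48% ± 0.895.

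**Figure D1:**
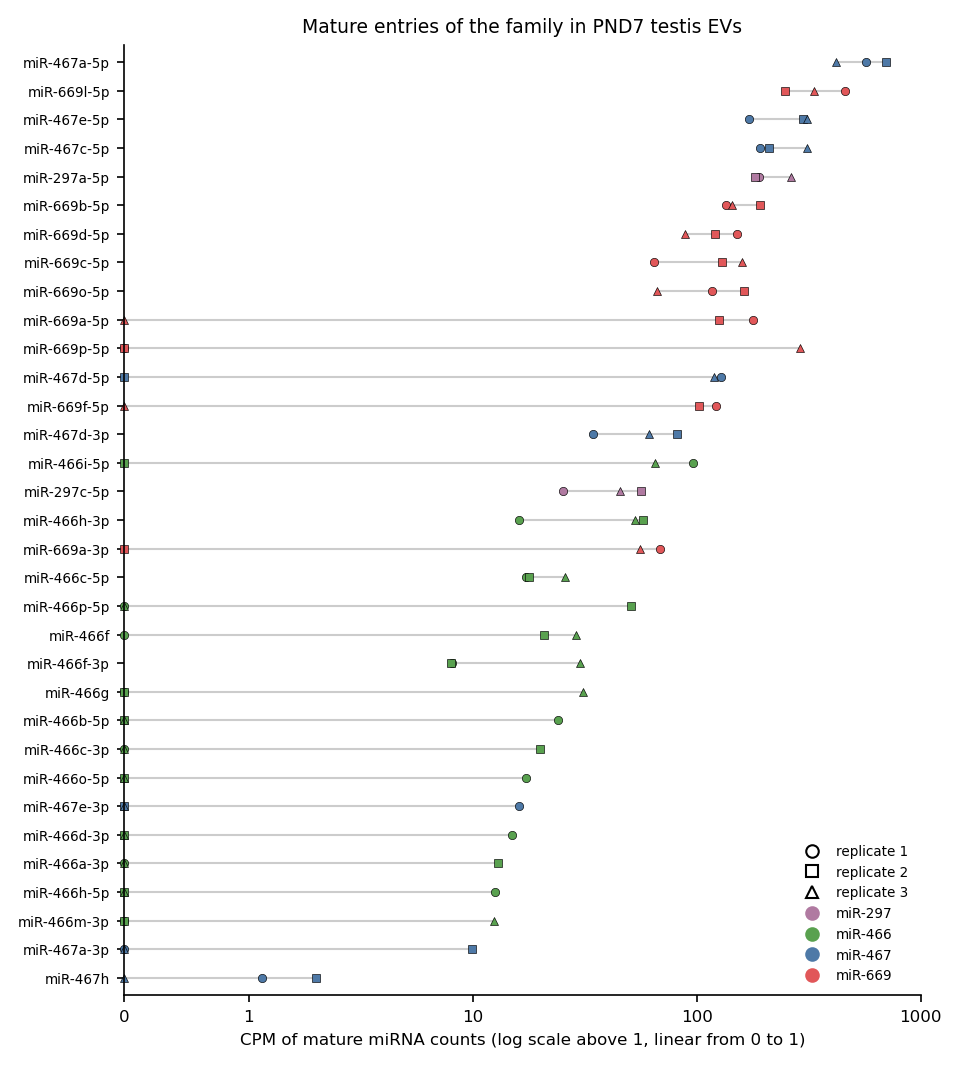
Each row is a mature entry of the family, ordered by mean level, and the horizontal axis gives its CPM of mature miRNA counts, on a log scale above 1. Symbols mark the 3 replicates and colours the subfamilies. miR-467a-5p has the highest mean, 562 CPM, and the symbols on the left edge are libraries in which an entry had no count.

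The highest member was miR-467a-5p, the 5p product of Mir467a, a name that 10 annotated genes of the cluster share. It had 497, 701 and 405 mature counts in replicates 1, 2 and 3, which are 571, 697 and 419 counts per 1000000 mature miRNA counts (CPM). Its mean was 562 ± 139 CPM (SD, n = 3), rank 90 among the 604 mature entries, and it held 19.8% ± 5.23 of the family.
Second was miR-669l-5p, from the single gene Mir669l, with 458, 249 and 333 CPM and a mean of 347 ± 105. miR-467a-5p exceeded it in every library, but the log2 ratio of 0.71 ± 0.67 was hardly larger than its SD (exact sign-flip p = 0.25, adjusted p = 0.875 over 7 neighbouring pairs).
miR-467e-5p followed with 149, 301 and 301 mature counts, a mean of 261 ± 77.8 CPM. miR-467c-5p had 192, 210 and 309 CPM, a mean of 237 ± 63.4. These members changed places between libraries, and replicate 1 was the lowest of the 3 for both.
miR-297a-5p, the leading miR-297 member, had 191, 183 and 263 CPM. Its mean of 212 ± 44.1 CPM lay within an SD of that of miR-467c-5p, although miR-467c-5p was slightly higher in each library.
miR-669b-5p had 135, 192 and 144 CPM and was the steadiest member, with a highest level 1.42 times its lowest. miR-669d-5p and miR-669c-5p, with means of 121 ± 31.3 and 118 ± 48.6 CPM, completed the 8 highest, and miR-669o-5p was next with 115 ± 47.9 CPM.
All 9 of these entries were counted in every library and carried 5p names. No pair of neighbours in the order of the first 8 differed by an adjusted p below 0.875, and the design with 3 libraries could not have given an unadjusted p under 0.25.

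The miR-466 names contributed many entries with few counts. Their leading mature entry, miR-466i-5p, from chromosome 13, had 84, 0 and 63 counts. Within Sfmbt2 the leading one was miR-466h-3p, with 16.1, 57.7 and 52.8 CPM, which varied more than any other member with at least 10 counts in every library. Of the 14 mature miR-466 entries only miR-466h-3p, miR-466c-5p and miR-466f-3p were counted in every library, and 9 were counted in a single library with 11 to 51 counts.
Over all 33 mature entries the median of the mean level was 42.2 CPM, beside 29.1 CPM over all 604 mature entries.

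**Figure D2:**
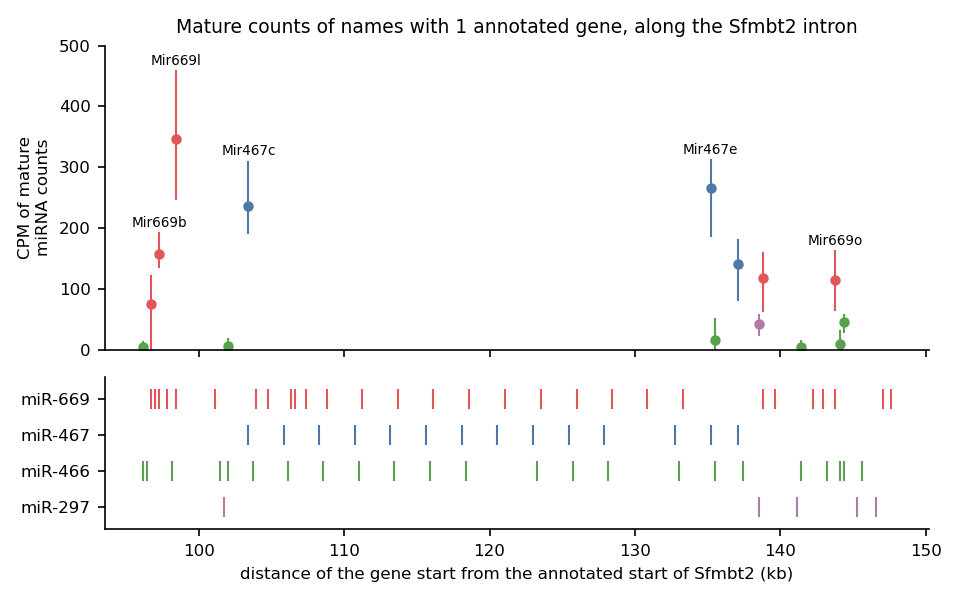
Upper panel, mature CPM of the 15 names that have a single annotated gene within Sfmbt2 and a mature count, against the distance of that gene from the start of Sfmbt2, with points at the mean and lines from the lowest to the highest of 3 replicates. Lower panel, the 71 annotated genes of the cluster by subfamily. Mir669l has the highest mean in the upper panel, 347 CPM, and no single-gene name with a mature count lies in the middle of the cluster.

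Along the intron, only part of the family has names that stand for a single gene. The 15 names with 1 gene within Sfmbt2 held 55.7% ± 1.58 (SD, n = 3) of the mature family counts, and 8 names with several genes, such as Mir467a and the 12 genes named Mir669a, held 41.7% ± 1.29. Of the 15 single-gene names, 14 share a run of at least 22 bases, anywhere in the precursor, with a gene of another name. Where that run covers the counted part, their counts are also not certain to come from that gene. The single-gene names with counts lay near both ends of the cluster. At the end nearer to the start of Sfmbt2 they included Mir669f, Mir669b, Mir669l and Mir467c, between 96.7 and 103 kb from that start. Near the other end they included Mir467e, Mir467d, Mir297c, Mir669c, Mir669o and Mir466h, between 135 and 144 kb. The stretch between them is made mostly of genes named Mir466b, Mir467a or Mir669a, and counts of these names cannot be divided among their genes.
Mir467e, at 135 kb, had a mean of 266 CPM with both arms summed, and Mir467c, at 103 kb, had 237 CPM. The levels of these members from opposite ends overlapped between libraries.
Annotated names were matched to entries by the text of the name alone. Of the 45 annotated names of the family, 15 matched no entry with a mature or hairpin count. They were Mir297b, Mir466, Mir466l, Mir466n, Mir669g, Mir669h, Mir669i, Mir669j and Mir669k within Sfmbt2, and Mir466j, Mir466q, Mir467f, Mir467g, Mir669n and the gene Mir297-1 elsewhere. For Mir466 this leaves out miR-466a-3p, with 0, 13 and 0 mature counts, whose gene was not settled. Mir297-1 shares an exact run of 24 bases with a Mir297a precursor, and reads from that run cannot be told apart. A mature count of 0 allows up to 3.44, 2.98 and 3.10 CPM in replicates 1, 2 and 3, the level of 3 counts. That limit holds for an entry and not for a gene, because reads from a shared run can be placed on another name. Mir297b, for example, shares a run of 62 bases with Mir297c.

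The balance of hairpin and mature counts differed between the subfamilies. The type called hairpin is not defined in the sources used here, and its entries were kept apart from the mature ones. Hairpin entries held 77.2%, 72.1% and 66.6% of the counts on miR-466 names in replicates 1, 2 and 3, and 45.5%, 44.4% and 46.5% of those on miR-669 names. For miR-467 names the values were 21.3%, 20.4% and 29.1%, and for miR-297 names 10.5%, 2.03% and 15.3%. The ranges of the 4 subfamilies did not overlap, with miR-466 highest and miR-297 lowest in each library.
On the log2 scale of hairpin to mature counts, miR-466 exceeded miR-467 by 3.09 ± 0.72 and miR-669 by 1.64 ± 0.42 (SD, n = 3; exact sign-flip p = 0.25 and adjusted p = 0.25 over 6 pairs for each). The other 4 pairs also had the same direction in every library, with the same exact p.
For the family as a whole the log2 ratio was -0.56 ± 0.16, and it exceeded that of the other named miRNAs by 0.42, 0.010 and 0.26 in replicates 1, 2 and 3. The mean difference of 0.23 ± 0.20 (SD, n = 3; exact sign-flip permutation p = 0.25) was about as large as its SD.

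**Figure D3:**
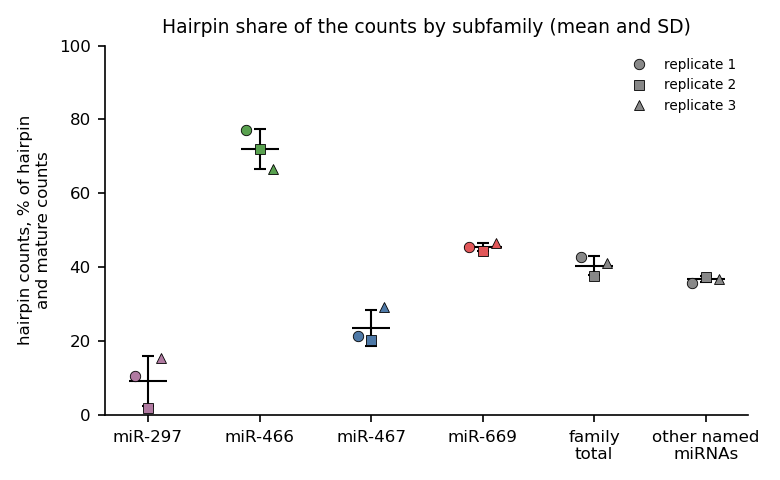
Hairpin counts as a percentage of hairpin and mature counts, for each subfamily, the whole family and all other named miRNAs. Symbols are the 3 replicates, and bars give the mean and SD. The miR-466 names lie between 66.6% and 77.2%, above every other group.

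Some single members followed the balance of their subfamily and others did not. miR-467a-5p, the highest mature entry, had only 8, 28 and 66 hairpin counts. miR-297a-5p was mostly mature, like the miR-297 names together. It had 166, 184 and 254 mature counts and 4, 5 and 54 hairpin counts, most of the latter in replicate 3.
The highest hairpin entries were miR-669b-5p, with 268, 240 and 179 counts, and miR-669a-5p, with 261, 204 and 198. For miR-669b-5p these exceeded the 118, 193 and 139 mature counts in each library.
miR-669l-5p had 217, 184 and 155 hairpin counts and miR-467e-5p 148, 148 and 209. Both had more mature than hairpin counts in every library.
miR-466f-3p, the leading hairpin entry of its subfamily, had 150, 70 and 103 hairpin counts against 7, 8 and 29 mature ones. miR-466h-3p went the other way, with 14, 58 and 51 mature counts and 0, 2 and 33 hairpin counts. miR-669o-5p, miR-669e-5p and miR-467d-5p, with means of 155, 141 and 122 CPM of the hairpin counts, completed the 8 highest, and miR-669e-5p had no mature count in any library.
Among hairpin entries with at least 10 counts in every library, miR-669a-3p was the steadiest, with a highest level 1.27 times its lowest, and miR-467c-5p varied most, by 3.61 times. The median of the mean level was 36.6 CPM of hairpin counts over the 41 family entries and 43.2 CPM over all 743.

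Several members were present at well over 10 counts in some libraries and at 0 in others. miR-669a-5p had 156 and 126 mature counts in replicates 1 and 2 and none in replicate 3, whereas miR-669p-5p had none in replicates 1 and 2 and 280 in replicate 3. The longest exact run that a Mir669a precursor shares with a Mir669p precursor is 69 bases. Summed, the pair had 179, 125 and 290 CPM.
The hairpin entry of miR-669a-5p, by contrast, was counted in all 3 libraries, at 198 counts in replicate 3, and that of miR-669p-5p had 26, 28 and 11 counts.
miR-467d-5p was at 0 in replicate 2, the library in which miR-467a-5p was highest, and precursors of these names share up to 60 bases. Their sums were 609, 701 and 521 mature counts. Sums were also taken for names with long shared runs and counts in every library. miR-467c-5p and miR-467e-5p varied 1.71-fold between libraries when summed, beside 1.61-fold and 1.82-fold alone. miR-669d-5p and miR-669l-5p varied 1.65-fold when summed, beside 1.70-fold and 1.84-fold alone.
miR-669f-5p had 106, 103 and 0 counts, and miR-669a-3p had 60, 0 and 54. Over all miR-669 5p entries the sum was 1227, 1081 and 1081 CPM, 1.14-fold from lowest to highest.
The part that shared sequence has in these zeros was not tested.

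**Figure D4:**
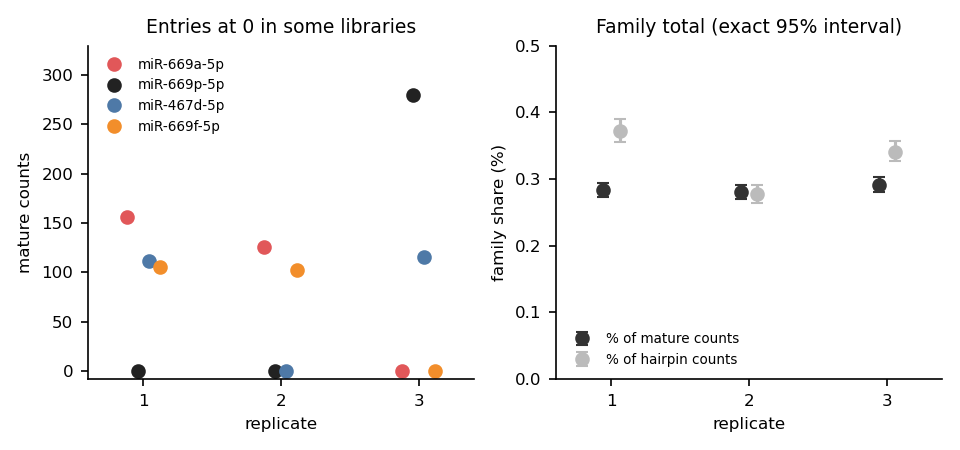
Left, mature counts of 4 entries in each replicate, with points moved sideways so that they do not hide one another. miR-669p-5p appears in replicate 3 alone, where miR-669a-5p and miR-669f-5p are at 0. Right, the share of the family in the mature and hairpin counts with exact 95% intervals, which overlap between all libraries for the mature counts.

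In all, 18 of the 33 mature entries had at least 10 counts in one library and 0 in another, as did 16 of the 41 hairpin entries. These are 54.5% of the mature and 39.0% of the hairpin entries of the family, beside 34.9% of all 604 mature entries and 28.5% of all 743 hairpin entries. Among entries with a mean of 10 to 1000 counts, this held for 9 of 23 mature family entries, beside 32.3% of all 341 mature entries in that range. For hairpin entries it held for 10 of 31, beside 26.1% of all 425. The family's share lay above that over all entries for both types, by less in the range of 10 to 1000 counts, and no test was made of it.
Most of the entries with a gap were low. Besides those described, miR-466f had 0, 21 and 28 mature counts, miR-466p-5p had 51 in replicate 2 alone and miR-466g had 30 in replicate 3 alone. The 9 other mature entries found in a single library, among them miR-467e-3p and miR-467a-3p, had 10 to 21 counts.
Of the 16 hairpin entries with a gap, 12 carried miR-466 names, as did 20 of all 41 hairpin entries of the family. miR-466o-5p had 50, 101 and 0 hairpin counts, and its mature entry had 15, 0 and 0. miR-669m-5p had 18, 0 and 87 hairpin counts and no mature count, and miR-466p-3p had 0, 50 and 26 and likewise no mature count. The highest count of the 13 others lay between 12 and 47.
The 12 identifiers with a hairpin entry only were led by miR-669e-5p, with 53, 81 and 105 counts, and miR-466i-3p, with 56, 33 and 49, and these were the only ones of the 12 counted in every library. At the low end, miR-669o-3p, miR-466e-3p and miR-467b-5p had 1 hairpin count each in 1 library. miR-467h, of chromosome 9, had 1, 2 and 0 mature counts, under the level that a count of 0 allows.
The family's members with at least 10 counts in every library, 13 mature entries, varied between libraries by a median factor of 1.82, beside 1.73 over the 272 mature entries that passed the same minimum.

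The family was set beside 2 other sets of clustered miRNAs. The imprinted miR-379/miR-410 cluster of chromosome 12, expressed from the maternal allele, held 5.89% ± 0.795 (SD, n = 3) of the mature counts on 50 entries. The miR-290 to miR-295 and miR-302 clusters, which mark pluripotent cells, held 0.0314% ± 0.000789 on 9 entries. The family lay between these sets, and the 3 ranges did not overlap.
The miR-379/miR-410 cluster was even more one-sided in its arms, with a log2 ratio of 3p to 5p of -4.82 ± 0.19, and the family exceeded it by 0.99 ± 0.32. In the pluripotency clusters the 3p arm was the higher one, at 1.68 ± 0.55, and the family lay lower in each library (family minus these clusters, -5.51 ± 0.67). Each of these differences had 1 direction in all 3 libraries, with the smallest exact sign-flip p, 0.25.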

How the data were processed

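The authors sequenced EV small RNA on the BGISEQ-500, removed low-quality reads, mapped clean reads with Bowtie2 and cmsearch, and gave each read to 1 class, miRBase first. The deposited catalogues hold whole-number read counts per entry, without normalization. The deposited class tables hold counts and the percent of clean reads, of which the percent column was not used. A further column headed as molecular identifiers was not used. Summing catalogue rows by class gave back the class totals exactly. Libraries held 25716952, 26002463 and 27939308 clean reads.

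From the counts, levels were computed as CPM of the mature or hairpin counts of each library and given as mean ± SD. Arms were read from identifiers. Ratios were compared within libraries by exact sign-flip tests, whose smallest p is 0.25, so none can pass 0.05. P-values rest on the variation between these preparations, and 3 values of 1 sign give 0.25 whatever their spread. Each pair of libraries differed by more than the sampling of reads, with a chi-square per degree of freedom of at least 96.6 over 272 entries. Over 13 entries of the family it was 14.6 for replicates 1 and 2, 17.1 for 1 and 3, and 13.9 for 2 and 3. These values cannot tell separate preparations from repeat libraries of the same RNA. Gene positions and precursor runs came from GENCODE vM21.

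The members, lists and comparisons were chosen with earlier results of these data known. The members named were the 8 highest of each type, the leaders of each subfamily and arm, the steadiest and the most variable, and those with at least 10 counts in one library and 0 in another. The partner arms and hairpin entries set beside them, miR-669o-5p, the single-gene names and the names that matched no counted entry were chosen after their values were seen. Functions were tested on simulated data. Scripts ran under Python 3.11.15 with SciPy 1.17.1, numpy 2.4.6 and pandas 2.3.3.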

Additional observations from a re-analysis of the deposited data

How the results depend on the processing

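Changing the denominator moved the family share by construction. It was 0.285% of the mature counts, 0.164% of all miRNA counts and 0.0102% of the clean reads, and for hairpin entries 0.330%, 0.112% and 0.00690% in the same order. The mature share was 0.278% for members within Sfmbt2 only, 0.302% with mature and hairpin entries summed and 0.230% over entries with at least 10 counts in every library, each a larger move than the spread between libraries. The number of mature members was 33, and 14 with a count required in every library or 13 with at least 10 there. With mature and hairpin entries summed, the miR-467 share fell from 42.5% to 33.2% and miR-669 led with 44.8%, and the share of miR-467a-5p fell from 19.8% to 12.6%. Without replicate 2, miR-669 led the mature counts with 42.4% against 40.6% for miR-467.

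Leaving out each replicate in turn gave mature shares of 0.282% to 0.287%, hairpin shares of 0.309% to 0.357%, 28 to 30 members, miR-467 shares of 40.6% to 44.1% and miR-467a-5p shares of 17.3% to 22.5%. The log2 ratio of 3p to 5p kept its direction under the 7 alternatives run, between -4.56 and -2.78. The excess of the log2 hairpin to mature ratio over other miRNAs stayed above 0 as a mean under the 6 run, but with medians over identifiers it was 0.16 ± 0.49 and below 0 in replicate 3. Counting members with the same mature sequence once was not run. No paired analysis was possible because a single group leaves no samples to pair across groups; the sign-flip tests pair values within a library. Entries under 10 counts are limited by depth.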
